A study of Mus musculus with 8 samples.

Results

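Interferon response genes are genes whose transcription rises when a cell senses an interferon. The 42 genes described here were taken by symbol from a list of receptors, transcription factors, nucleic acid sensors and antiviral effectors. All 42 were found among the 54532 genes of the deposited table. RNA was sequenced from mouse brown adipose tissue of 4 wild-type samples (WT 1 to 4) and 4 samples labelled OGTBKO (OGTBKO 1 to 4), in which the O-GlcNAc transferase gene Ogt was deleted in brown adipocytes. Per the labels, mice were housed at 23 °C on chow, were induced after 8 weeks with an agent that the labels spell gomaxifen, and gave brown fat, cleared of white fat, 2 months later. The labels give both groups the treatment "control". The labels used here do not state the Cre driver, the deleted exons, the sex, or whether WT mice carried a floxed allele or Cre. They number the samples without saying that each is a separate animal, so a p-value reflects only how far these 8 libraries scatter, which may be technical.

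Type I interferons bind a receptor made of IFNAR1 and IFNAR2. The kinases JAK1 and TYK2 on that receptor phosphorylate STAT proteins, among them STAT2, and these join IRF9 to form the complex ISGF3. ISGF3 enters the nucleus and binds the interferon-stimulated response element (ISRE) in the promoters of genes such as Isg15, Ifit1 and Oas1a. Interferon gamma acts through its own receptor and the gamma-activated site (GAS), and it strongly induces guanylate-binding proteins and immunity-related GTPases. Many of the same genes are kept at a basal level in tissue without infection, and IRF9 and STAT2 are themselves interferon-induced.

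ISGF3 binds the ISRE, so promoter stretches that hold its core are shown for members whose values are described below, both members that passed the test and members that did not. Promoter windows of 300 bases (250 before to 50 after the start) came from RefSeq on GRCm38.p6, and 32 of the 42 members had a window. The search used the ISRE core GAAANNGAAA and its reverse complement TTTCNNTTTC on both strands. The core was found in 18 of 37 member windows (48.6%) and in 3.44% of all windows. Each stretch is written 5′ to 3′ along its gene's strand, ends before the gene's start in the deposited table, and has the ISRE core in capitals. Overlapping cores run together. The stretches are Stat2 chr10:128270248-128270320 (plus strand), Trim30a chr7:104465194-104465264 (minus), Isg15 chr4:156200840-156200931 (minus), Ifit1 chr19:34640750-34640848 (plus), Oas1a chr5:120907526-120907580 (minus), Bst2 chr8:71537552-71537637 (minus), Gbp7 chr3:142530248-142530327 (plus) and Igtp chr11:58199487-58199555 (plus).
Stat2: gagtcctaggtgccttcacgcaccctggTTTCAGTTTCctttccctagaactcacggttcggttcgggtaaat
Trim30a: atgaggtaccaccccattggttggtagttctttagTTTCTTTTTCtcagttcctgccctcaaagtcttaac
Isg15: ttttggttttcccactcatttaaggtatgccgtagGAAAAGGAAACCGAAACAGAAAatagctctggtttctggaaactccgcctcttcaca
Ifit1: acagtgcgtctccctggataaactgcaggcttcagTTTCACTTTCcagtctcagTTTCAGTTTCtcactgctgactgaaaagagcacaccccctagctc
Oas1a: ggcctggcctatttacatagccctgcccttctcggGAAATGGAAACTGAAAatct
Bst2: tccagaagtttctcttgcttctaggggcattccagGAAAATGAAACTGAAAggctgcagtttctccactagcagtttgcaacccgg
Gbp7: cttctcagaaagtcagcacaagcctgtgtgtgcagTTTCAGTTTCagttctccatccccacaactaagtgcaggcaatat
Igtp: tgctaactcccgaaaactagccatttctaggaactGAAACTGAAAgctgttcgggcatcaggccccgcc

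The core was present in 6 of 11 windows of members lower in OGTBKO (54.5%) and in 11 of 24 windows of members that were tested and not called (45.8%). Some genes had more than 1 window, and counted by gene it was in 5 of 9 and 11 of 21. Rtp4, Ifi27 and Oas2, also lower in OGTBKO, had no window. The GAS core TTCNNNGAA, searched on both strands, was in 11 of 37 member windows (29.7%) and in 8.3% of all windows. The GAS core was in 1 of 11 windows of members lower in OGTBKO (9.09%) and in 10 of 24 windows of members tested and not called (41.7%). By gene these were 1 of 9 and 10 of 21. A match describes these letters only, and it was not tested whether any factor was bound.

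Expression is given as FPKM, reads scaled by gene length and library size, so that levels can be compared between genes. Differences are given as the OGTBKO minus WT mean of log2(FPKM + 0.5) with the standard error (SE), a scale that understates the change of weakly expressed genes. A gene was tested with limma when its mean was at least 0.5 FPKM and was called at a Benjamini-Hochberg adjusted p below 0.05 over the 13171 genes tested. Each library held 13393962 to 15897920 reads in genes, of which 15151 to 29334 fell in the members. In the targeted gene, Ogt, WT 1 to 4 had 33.1, 24.7, 23.9 and 22.5 FPKM, and OGTBKO 1 to 4 had 10.7, 14.5, 12.8 and 11.8 FPKM. Every OGTBKO library was below every WT library for Ogt (log2 change -1.03, SE 0.14, adjusted p = 0.00511).

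Of the 42 members, 38 were tested, 12 fell in OGTBKO, none rose and 26 were not called. Over all genes tested 15.6% were called, 7.46% lower and 8.11% higher, while 31.6% of the tested members were lower. The 12 that fell were Rtp4, Irf9, Ifi27, Ifitm3, Trim30a, Xaf1, Trim25, Oas2, Oasl2, Ifih1, Ddx58 and Stat2. The members' median log2 change was -0.73, against -0.00213 over all genes tested. A negative value was found for 33 of the 38, and the 5 with a positive value were Ifnar2, Dhx58, Samhd1, Dtx3l and Ifi35. For 14 tested members all 4 OGTBKO libraries lay below all 4 WT libraries, which held for 11.4% of all genes tested. For 1 member, Ifnar2, they lay above, which held for 11.1% of all genes tested. These separations are of the deposited FPKM. With FPKM computed from library totals, the groups overlap for Ifitm3, Trim25, Trim30a, Oas2, Oasl2 and Bst2. The shares over all genes were not computed on that scale. RNA came from whole tissue, so fewer cells of a type and less RNA per cell cannot be told apart.

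**Figure D1:**
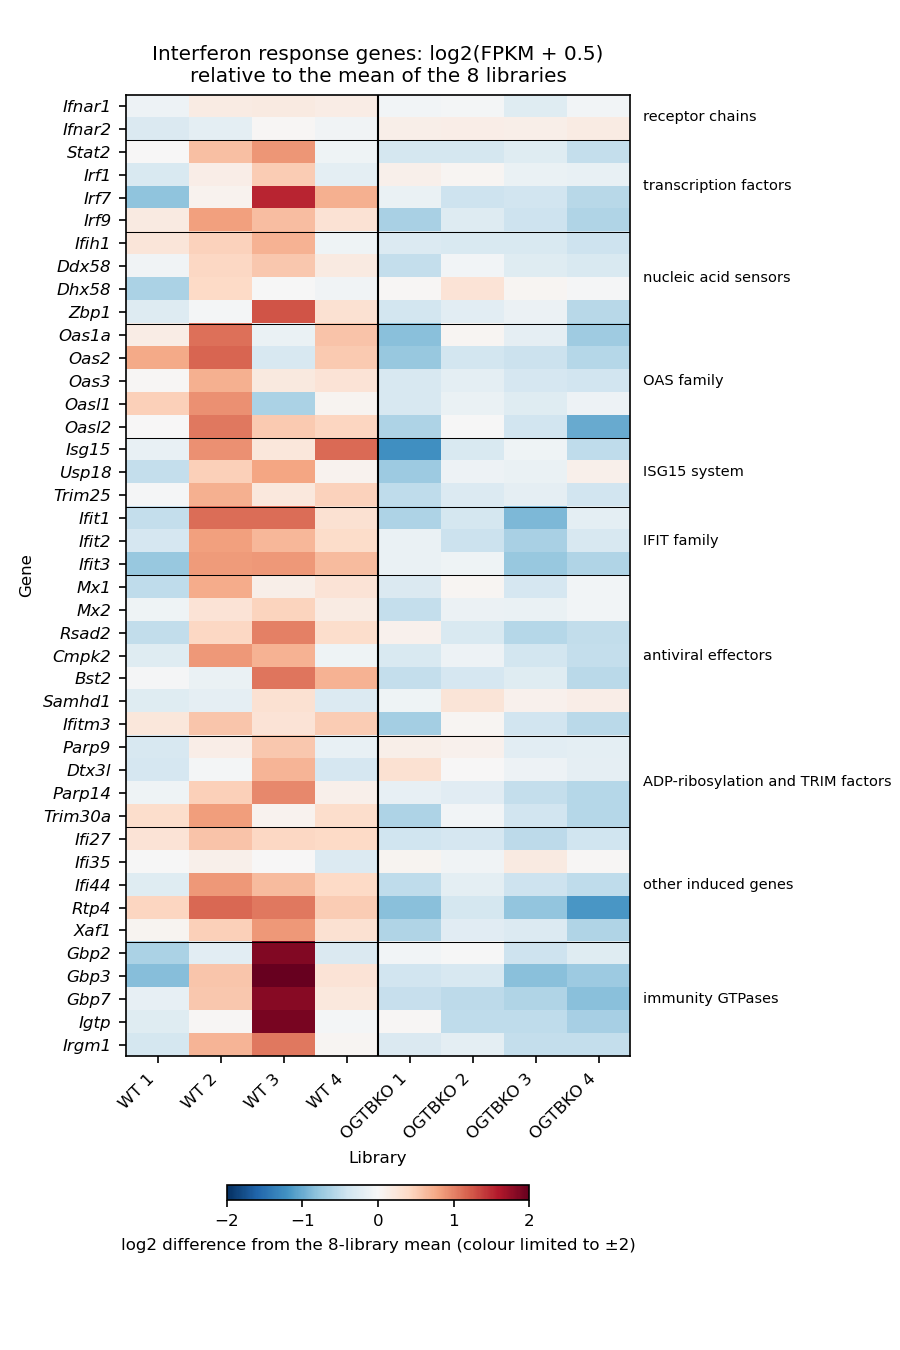
The heatmap shows the 42 members (rows, grouped by role) in the 8 libraries (columns), coloured by log2(FPKM + 0.5) minus the gene's mean over the libraries. WT 1 is the lowest WT library for 33 members, and the GTPase rows are highest in WT 3.

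**Figure D2:**
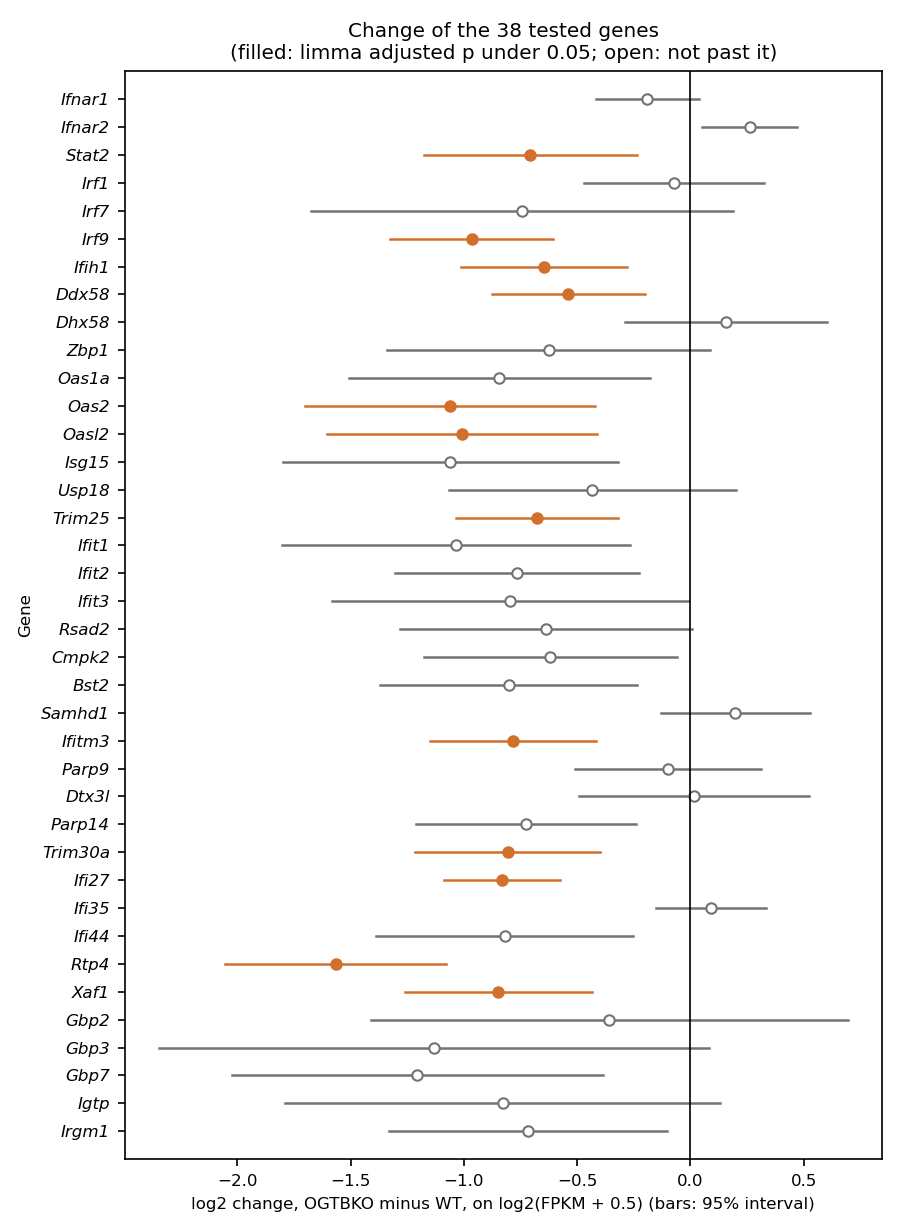
Points give the log2 change of each tested member (OGTBKO minus WT, on log2(FPKM + 0.5)) with its 95% interval, in order of role, with a vertical line at 0. Filled points passed the test. The 12 called members all lie below 0, from Rtp4 at -1.57 to Ddx58 at -0.54.

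Neither chain of the type I interferon receptor was called. Ifnar1, the receptor chain bound by TYK2, had 8.48, 10.3, 10.4 and 10.2 FPKM in WT 1 to 4 and 8.78, 8.93, 7.71 and 8.85 FPKM in OGTBKO 1 to 4. WT 1 lay within the OGTBKO range, and the log2 change was -0.19 (95% interval -0.42 to 0.04, adjusted p = 0.222). Ifnar2, the chain bound by JAK1, had 11.0, 11.8, 13.7 and 12.8 FPKM in WT and 14.6, 14.9, 14.6 and 15.1 FPKM in OGTBKO. Each OGTBKO library was above each WT library for Ifnar2, with a log2 change of 0.26 (95% interval 0.05 to 0.47) that did not pass the test (adjusted p = 0.0854). Without WT 3 the adjusted p for Ifnar2 was 0.0472. The genes lie close together on mouse chromosome 16, Ifnar2 at chr16:91372783-91405589 and Ifnar1 at chr16:91485238-91507441 (mm10), with Il10rb between them.

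Among the transcription factors, the ISGF3 subunits Irf9 and Stat2 fell. Irf9 (chr14:55603571-55610030), the DNA-binding subunit of ISGF3, had 3.84, 6.29, 5.40 and 4.20 FPKM in WT 1 to 4 and 1.95, 2.69, 2.38 and 2.01 FPKM in OGTBKO 1 to 4. The groups did not overlap, and the log2 change was -0.97 (SE 0.16, adjusted p = 0.00875). Irf9 overlaps Rnf31 on the same strand, and Rnf31 went from 2.94 to 2.60 FPKM, so reads in the shared stretch are uncertain between the genes. Stat2 (chr10:128270559-128292849), whose promoter stretch above holds 1 ISRE core, had 3.62, 5.75, 7.09 and 3.38 FPKM in WT and 2.73, 2.73, 2.97 and 2.45 FPKM in OGTBKO. All OGTBKO values were below the lowest WT value, and Stat2 lay just inside the threshold (log2 change -0.71, SE 0.21, adjusted p = 0.0497). It was called in 2 of the 8 fits that left out 1 library, those without WT 1 and without WT 4.

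Irf7, which amplifies type I interferon production, had 0.841, 1.96, 6.25 and 3.35 FPKM in WT 1 to 4 and 1.65, 1.27, 1.30 and 1.10 FPKM in OGTBKO 1 to 4. WT 1 was below every OGTBKO library while the other WT libraries were above all of them, and the log2 change of -0.74 did not pass the test (adjusted p = 0.246). Without WT 1 it was -1.14 (adjusted p = 0.0399). Irf7 overlaps Phrf1 on the opposite strand, and whether the counting used strand is not stated in the labels. Irf1, a factor that interferon gamma induces, had overlapping groups, with means of 4.31 FPKM ± 1.28 (SD, n = 4) in WT and 3.97 ± 0.405 in OGTBKO. Its log2 change was -0.07 (95% interval -0.47 to 0.32).

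Of the 4 tested sensors and sensor-like genes, Ifih1 and Ddx58 fell. Ifih1 encodes MDA5, a cytosolic sensor of long double-stranded RNA. It had 2.55, 3.05, 3.70 and 1.93 FPKM in WT 1 to 4 and 1.65, 1.60, 1.59 and 1.45 FPKM in OGTBKO 1 to 4. The groups did not overlap (log2 change -0.65, SE 0.16, adjusted p = 0.0299), and Ifih1 was called in 3 of the 8 fits that left out 1 library (WT 1, WT 3 or WT 4). Ddx58 encodes RIG-I, a sensor of RNA with a 5′ triphosphate. It had 3.86, 5.59, 6.16 and 4.68 FPKM in WT and 2.79, 3.88, 3.34 and 3.21 FPKM in OGTBKO. OGTBKO 2 was just above WT 1, so Ddx58 was the only called member whose groups overlapped (log2 change -0.54, SE 0.15, adjusted p = 0.0413). With 1 library left out it was called in 1 of 8 fits, that without WT 1. Dhx58, the regulator LGP2 of the same helicase family, had means of 1.98 ± 0.692 FPKM in WT and 2.19 ± 0.263 in OGTBKO (log2 change 0.16, adjusted p = 0.626). Zbp1, a sensor of Z-form nucleic acid, had 0.388, 0.534, 2.06 and 0.815 FPKM in WT and 0.328, 0.422, 0.489 and 0.224 FPKM in OGTBKO, with overlapping groups (adjusted p = 0.204).

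The 2′-5′ oligoadenylate synthetase (OAS) genes encode enzymes and enzyme-like proteins that answer double-stranded RNA, and the active ones switch on RNase L. They lie on mouse chromosome 5, with Oas2 at chr5:120730333-120749853 and Oasl2 at chr5:114896936-114912234. Oas2 had 2.24, 3.11, 0.785 and 1.81 FPKM in WT 1 to 4 and 0.452, 0.753, 0.700 and 0.581 FPKM in OGTBKO 1 to 4. The groups did not overlap, although WT 3 was only just above OGTBKO 2 (log2 change -1.06, SE 0.28, adjusted p = 0.0368). With 1 library left out Oas2 was called in 1 of 8 fits, that without WT 3. Oasl2 had 1.22, 3.06, 1.96 and 1.79 FPKM in WT and 0.612, 1.21, 0.812 and 0.349 FPKM in OGTBKO. Its highest OGTBKO library lay just under its lowest WT library (log2 change -1.01, SE 0.26, adjusted p = 0.0348), and it was called in 2 of 8 such fits, without WT 1 and without OGTBKO 2. Oas1a, whose promoter stretch holds overlapping ISRE cores, had 1.45, 3.30, 1.10 and 2.11 FPKM in WT and 0.485, 1.32, 1.06 and 0.572 FPKM in OGTBKO. OGTBKO 2 was above WT 3, and Oas1a was not called (log2 change -0.84, SE 0.30, adjusted p = 0.0821). WT 3 was the lowest WT library for Oas2 and Oas1a.

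Oas3 and Oasl1 stayed under 0.5 FPKM on average and were not tested. Oas3 had 20, 64, 22 and 39 reads in WT 1 to 4 and 6, 12, 6 and 3 reads in OGTBKO 1 to 4. In FPKM its groups did not overlap, and without the filter on low values its adjusted p was 0.0526. Oasl1 had 27, 44, 2 and 18 reads in WT and 9, 13, 12 and 12 reads in OGTBKO, with WT 3 below all other libraries. The OAS genes are a family of close copies, so reads may have been split among them.

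ISG15 is a ubiquitin-like protein, TRIM25 a ligase that ubiquitinates RIG-I, and USP18 the protease that removes ISG15 and dampens receptor signalling. Trim25 (chr11:88999376-89020293) fell. It had 8.91, 15.2, 10.6 and 12.6 FPKM in WT 1 to 4 and 6.23, 7.37, 7.95 and 6.80 FPKM in OGTBKO 1 to 4, with no overlap (log2 change -0.68, SE 0.16, adjusted p = 0.0245). It was called in 2 of the 8 fits that left out 1 library, those without WT 1 and without WT 3. Isg15 had 1.24, 3.14, 1.75 and 3.72 FPKM in WT and 0.322, 1.07, 1.32 and 0.855 FPKM in OGTBKO. OGTBKO 3 was just above WT 1, and the log2 change of -1.06 (SE 0.33) did not pass (adjusted p = 0.0569). Without WT 1 the adjusted p for Isg15 was 0.0308. Usp18 had means of 1.93 ± 0.871 FPKM in WT and 1.25 ± 0.391 in OGTBKO, with overlapping groups (log2 change -0.43, adjusted p = 0.318).

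The IFIT proteins bind foreign RNA and block its translation, and Ifit2, Ifit3 and Ifit1 sit in a cluster on mouse chromosome 19. None passed the test with all libraries. Ifit1, whose stretch above holds separate ISRE cores, had 1.33, 5.0, 4.98 and 2.65 FPKM in WT 1 to 4 and 1.15, 1.5, 0.859 and 1.70 FPKM in OGTBKO 1 to 4. WT 1 lay among the OGTBKO libraries and the other WT libraries above them. Ifit2 had 1.60, 4.18, 3.68 and 2.91 FPKM in WT and 1.91, 1.46, 1.19 and 1.61 FPKM in OGTBKO. Ifit3 had 1.70, 6.17, 6.28 and 5.22 FPKM in WT and 2.86, 2.99, 1.69 and 1.94 FPKM in OGTBKO. The adjusted p was 0.0692 for Ifit1, 0.0589 for Ifit2 and 0.149 for Ifit3. Without WT 1 it was 0.0133, 0.0101 and 0.00925 in the same order. Ifit3 has a near-identical copy, so its counts are uncertain.

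Ifitm3, which blocks entry of enveloped viruses at the endosome, was the called member with the second highest level. It had 62.1, 78.9, 64.8 and 75.8 FPKM in WT 1 to 4 and 33.1, 54.9, 40.6 and 36.4 FPKM in OGTBKO 1 to 4. The groups did not overlap (log2 change -0.78, SE 0.16, adjusted p = 0.0169), and the call was lost without WT 2, OGTBKO 3 or OGTBKO 4. The other tested antiviral effectors, Bst2, Rsad2, Cmpk2 and Samhd1, were not called. Bst2 encodes tetherin, which holds budding virions at the cell surface. It had 15.3, 14.1, 33.3 and 25.5 FPKM in WT and 11.1, 12.2, 13.1 and 10.5 FPKM in OGTBKO, all OGTBKO libraries below all WT libraries (log2 change -0.80, SE 0.25, adjusted p = 0.0602). Rsad2 (viperin) had 3.46, 6.96, 10.8 and 6.64 FPKM in WT and 5.45, 4.03, 3.29 and 3.50 FPKM in OGTBKO, with WT 1 among the OGTBKO libraries (adjusted p = 0.158). Its neighbour Cmpk2, a mitochondrial nucleotide kinase, had means of 3.67 ± 1.56 FPKM in WT and 2.08 ± 0.288 in OGTBKO (adjusted p = 0.119). Samhd1, which hydrolyses dNTPs, had means of 4.59 ± 1.04 FPKM in WT and 5.28 ± 0.570 in OGTBKO (log2 change 0.20, 95% interval -0.13 to 0.53).

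Mx1 and Mx2, dynamin-like antiviral GTPases, were under the filter. Mx1 had 5, 50, 17 and 33 reads in WT 1 to 4 and 12, 23, 12 and 17 reads in OGTBKO 1 to 4. Mx2, annotated as a polymorphic pseudogene, had 11, 22, 21 and 21 reads in WT and 3, 12, 13 and 12 reads in OGTBKO. Without the filter neither passed (adjusted p = 0.581 for Mx1 and 0.187 for Mx2).

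Trim30a, a TRIM-family protein that restrains innate signalling, fell. It had 4.83, 6.93, 3.86 and 4.78 FPKM in WT 1 to 4 and 2.22, 3.49, 2.69 and 2.31 FPKM in OGTBKO 1 to 4, without overlap (log2 change -0.81, SE 0.18, adjusted p = 0.0216). Its call too was lost without WT 2, OGTBKO 3 or OGTBKO 4. The Trim30 genes are close copies, and reads may be split among them. Parp14, an ADP-ribosyltransferase, had 3.48, 5.40, 7.74 and 4.07 FPKM in WT and 3.28, 3.11, 2.53 and 2.37 FPKM in OGTBKO. Its groups did not overlap and it lay just outside the threshold (log2 change -0.72, SE 0.22, adjusted p = 0.0513). Parp9 and its partner ligase Dtx3l, which lie beside Parp14 and overlap each other on opposite strands, had changes near 0. Parp9 had a log2 change of -0.10 (95% interval -0.51 to 0.31) and Dtx3l of 0.02 (95% interval -0.49 to 0.52).

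The remaining induced genes held the strongest calls. Rtp4 (chr16:23520291-23614222), a chaperone of G protein-coupled receptors that interferon also induces, had 4.87, 8.36, 7.84 and 5.17 FPKM in WT 1 to 4 and 1.74, 2.65, 1.83 and 1.28 FPKM in OGTBKO 1 to 4. The highest OGTBKO library was well under the lowest WT library (log2 change -1.57, SE 0.22, adjusted p = 0.00488). Ifi27 (chr12:103434211-103440239), a small membrane protein, was the most abundant member, with 613, 755, 676 and 666 FPKM in WT and 383, 401, 352 and 384 FPKM in OGTBKO. The spread within each group was small beside the gap (log2 change -0.83, SE 0.11, adjusted p = 0.00462). Xaf1, a proapoptotic protein that binds XIAP, had 1.95, 2.77, 3.79 and 2.40 FPKM in WT and 1.05, 1.51, 1.46 and 1.06 FPKM in OGTBKO. Its groups did not overlap (log2 change -0.85, SE 0.18, adjusted p = 0.0187), and the call was lost without WT 2 or OGTBKO 4. Ifi44 had 0.341, 1.31, 1.05 and 0.808 FPKM in WT and 0.199, 0.375, 0.245 and 0.199 FPKM in OGTBKO, and OGTBKO 2 was above WT 1 (log2 change -0.82, adjusted p = 0.0556). Ifi35 had means of 4.08 ± 0.480 FPKM in WT and 4.37 ± 0.348 in OGTBKO (log2 change 0.09, 95% interval -0.15 to 0.34).

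**Figure D3:**
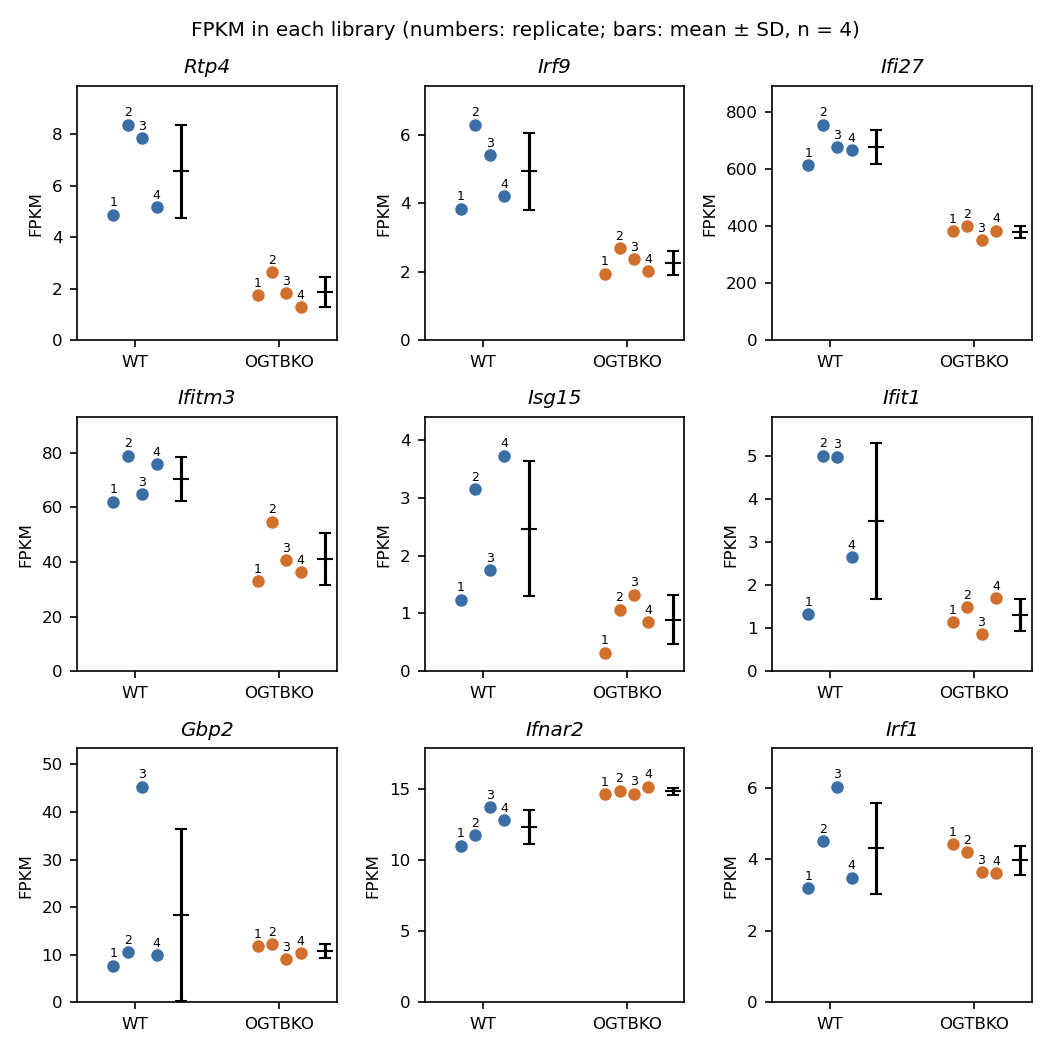
FPKM (vertical axis) of 9 members in each library, with points numbered by replicate and the mean ± SD beside each group. Rtp4, Irf9, Ifi27 and Ifitm3 show separate groups, Isg15 and Ifit1 overlap through a low WT 1, Gbp2 has 1 high library in WT 3 (45.3 FPKM), Ifnar2 is higher in OGTBKO without passing the test, and Irf1 overlaps.

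The interferon-inducible GTPases attack the vacuoles of intracellular microbes and answer interferon gamma most strongly. None of the 5 passed the test, and all 5 were highest in WT 3. Gbp2 had 7.68, 10.6, 45.3 and 9.94 FPKM in WT 1 to 4 and 11.8, 12.2, 9.04 and 10.3 FPKM in OGTBKO 1 to 4. The other WT libraries lay within or below the OGTBKO range, so the log2 change of -0.36 became 0.20 without WT 3. Gbp3 had 4.42, 12.6, 42.8 and 10.3 FPKM in WT and 6.36, 6.60, 4.48 and 4.88 FPKM in OGTBKO, with WT 1 below every OGTBKO library (adjusted p = 0.178). Gbp7 had 4.71, 7.96, 20.2 and 6.21 FPKM in WT and 3.75, 3.54, 3.35 and 2.78 FPKM in OGTBKO. Its groups did not overlap, and it lay just outside the threshold (log2 change -1.21, SE 0.36, adjusted p = 0.0525). Without WT 3 the change of Gbp7 was -0.80 with an adjusted p of 0.0221. The Gbp genes are close copies in a cluster on mouse chromosome 3, and reads may be split among them.

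Igtp (Irgm3) had 4.99, 6.12, 23.7 and 5.84 FPKM in WT 1 to 4 and 6.08, 4.08, 4.04 and 3.59 FPKM in OGTBKO 1 to 4, overlapping through OGTBKO 1 (adjusted p = 0.211). Igtp overlaps Irgm2 on the same strand, and Irgm2 had a WT mean of 15.3 and an OGTBKO mean of 5.29 FPKM. Irgm1 had 2.16, 4.93, 6.52 and 2.97 FPKM in WT and 2.27, 2.46, 1.93 and 1.92 FPKM in OGTBKO (adjusted p = 0.104). WT 3 stood at a median of 4.06 times the median of the other WT libraries over the GTPase members and at 0.523 times over the OAS members. The same library was thus the highest WT library for the GTPase members and the lowest for Oas1a, Oas2 and Oasl1, the last with 2 reads. The OAS members did not agree, with ratios of 0.871 for Oas3 and 1.09 for Oasl2.

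The other genes of the interferon pathway, 130 found in the table, were described from a separate list. Of the 101 tested, 13 fell (12.9%, against 7.46% of all genes tested), none rose and 88 were not called, with a median log2 change of -0.26. The count of lower genes was 0 without OGTBKO 3 (2.1% of all genes tested), and 1 without WT 2 (2.24%) or OGTBKO 4 (3.31%). It was 5 without WT 4 (3.71%) or OGTBKO 2 (3.6%), and 6 without OGTBKO 1 (5.34%). Without WT 3 it was 13 (7.56%), and without WT 1 it was 16 (7.64%). Library totals (1.89%) and a replicate block (2.48%) each gave 2. All but 1 of the lower genes were among the 72 tested that interferon induces, where 12 fell. None of the 15 tested sensing genes and none of the 6 tested inhibitors was called. Of the 9 interferon genes in the list, 8 were listed at 0 in all 8 libraries. For Ifnb1 a count of 0 allows up to 0.222 to 0.378 FPKM by library (3 reads), which covers counting error only. Ifng had 2 reads in WT 1, 1 in OGTBKO 2 and 2 in OGTBKO 3, and was listed at 0 in the other libraries.

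Stat3, which carries signals of the interleukin-6 family and is also activated by interferons, was the called gene among receptors, kinases and STATs. It had 13.6, 10.2, 8.69 and 9.19 FPKM in WT 1 to 4 and 6.51, 6.50, 6.40 and 7.02 FPKM in OGTBKO 1 to 4 (log2 change -0.60, SE 0.14, adjusted p = 0.0223), and the call was lost without WT 2, OGTBKO 2 or OGTBKO 3. The receptor kinases had changes near 0, Jak1 at 0.09 (95% interval -0.16 to 0.33) and Tyk2 at 0.00 (95% interval -0.23 to 0.24). The adaptors and factors that lead to interferon production were not called either, with Mavs at 0.02 (95% interval -0.27 to 0.31), Irf3 at -0.11 (95% interval -0.45 to 0.23) and Tmem173, which encodes STING, at 0.36 (95% interval -0.12 to 0.84). Socs1, a feedback inhibitor of JAK kinases, was under the filter, with 0.0744, 0.120, 0.195 and 0.105 FPKM in WT and 0.398, 0.384, 0.249 and 0.222 FPKM in OGTBKO. All its OGTBKO libraries were above all its WT libraries, and without the filter the log2 change was 0.38 (adjusted p = 0.0915). The inhibitor Socs3 had a log2 change of -0.02 (adjusted p = 0.975). The interferon gamma receptor chains Ifngr1 (log2 change -0.33, adjusted p = 0.2) and Ifngr2 (-0.07, adjusted p = 0.634) and the chemokine Cxcl10 (-0.11, adjusted p = 0.825) were not called.

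The Ifi200 family encodes DNA-binding proteins such as AIM2-like receptors, and 3 of its 7 tested genes fell, against 7.46% of all genes tested. These were Ifi207 (log2 change -0.86, adjusted p = 0.0206), Ifi203 (-0.58, adjusted p = 0.0282) and Ifi211 (-0.52, adjusted p = 0.0349). All 3 are among the 8 other pathway genes named for the smallest p, so the count is no independent support for the family. Ifi207 kept its call in 6 of the 8 fits with 1 library left out, Ifi203 in 3 and Ifi211 in 1. Under library totals none of the 3 passed (adjusted p = 0.0781, 0.13 and 0.144 in that order). With the GC and length trends removed Ifi203 had a log2 change of -0.28 (adjusted p = 0.197) and Ifi211 of -0.43 (adjusted p = 0.0738), while Ifi207 passed (adjusted p = 0.0319). The family consists of close copies, so reads may be split among them. Parp12, an ADP-ribosyltransferase, changed by -0.48 (adjusted p = 0.0292), the antiviral factor Samd9l by -0.76 (adjusted p = 0.0311) and the helicase Ddx60 by -0.61 (adjusted p = 0.0355). Phf11d changed by -0.64 (adjusted p = 0.0275). With 1 library left out, Samd9l was called in 5 of 8 fits, Parp12 and Phf11d in 3 and Ddx60 in 1. With the GC and length trends removed, Ddx60 had a log2 change of -0.32 (adjusted p = 0.207) and Samd9l of -0.50 (adjusted p = 0.12).

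On the log2(FPKM + 0.5) scale, members varied more among WT than among OGTBKO libraries. The SD of log2(FPKM + 0.5) was larger in WT for 37 of the 38 tested members, against 61.6% of all genes tested. The exception on this scale was Ifitm3. The added 0.5 shrinks the spread of low values most, and most members were lower in OGTBKO. How much of the contrast comes from the scale was not tested. The ratio of highest to lowest FPKM was larger in OGTBKO for Isg15, Oasl2, Rtp4 and Ifitm3. It was larger in WT for the other tested members. The median SD over the members was 0.474 in WT and 0.178 in OGTBKO, while over all genes it was 0.223 and 0.182. Leaving out 1 WT library at a time, the SD stayed larger in WT for 33 to 36 members, against 48.9% to 61.6% of all genes tested. The members' median WT SD was 0.347 without WT 3, 0.364 without WT 1, 0.481 without WT 2 and 0.525 without WT 4.

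**Figure D4:**
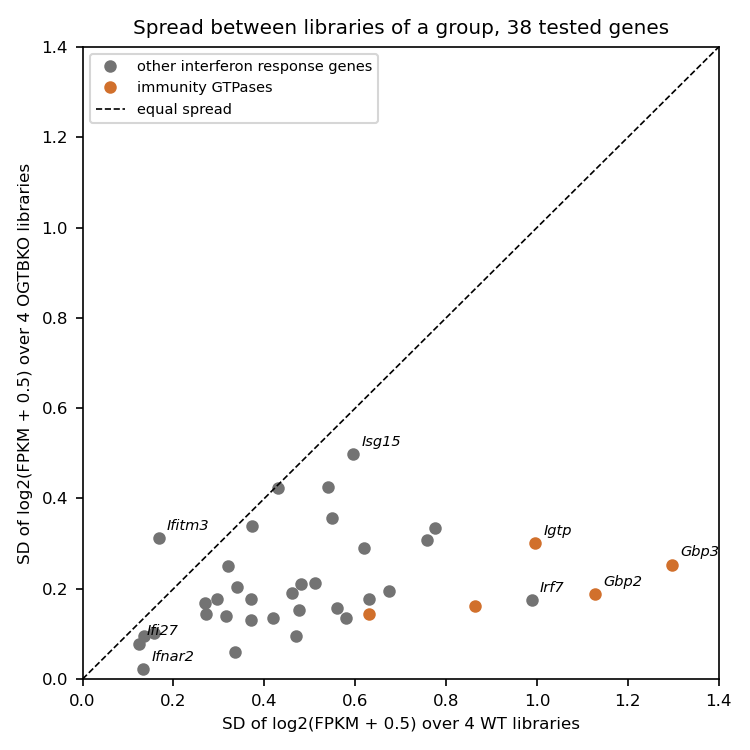
Each point is a tested member, with the SD of its log2(FPKM + 0.5) over the WT libraries on the horizontal axis and over the OGTBKO libraries on the vertical axis, GTPases in orange and equal spread as the dashed line. For 37 of the 38 members the WT value is the larger.

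WT 1 stood apart among WT libraries. It was the lowest WT library for 33 of the 42 members, against 30.1% of all genes tested, and the highest for none. For 10 members it lay below every OGTBKO library, and the share of all genes for which this held was not computed. WT 3 was the highest WT library for 23 members, against 32.1% of all genes tested, and WT 2 for 18, against 18.7%. Without WT 1, 24 members were lower, against 7.64% of all genes tested, and the OGTBKO libraries lay below the WT libraries for 27 of 38, against 16% of all genes tested. Of the 12 members called with all libraries, Oas2 was the only one not called then (adjusted p = 0.0699). Without WT 2, 3 members were lower (2.24% of all genes tested). Leaving out WT 3 gave 11 (7.56% of all genes) and leaving out WT 4 gave 8 (3.71%). Without an OGTBKO library the count was 6 for OGTBKO 1 (5.34% of all genes), 7 for OGTBKO 2 (3.6%), 4 for OGTBKO 3 (2.1%) and 3 for OGTBKO 4 (3.31%). Rtp4, Irf9 and Ifi27 were called lower in all 8 of these fits and under each of the 10 other alternatives.

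**Figure D5:**
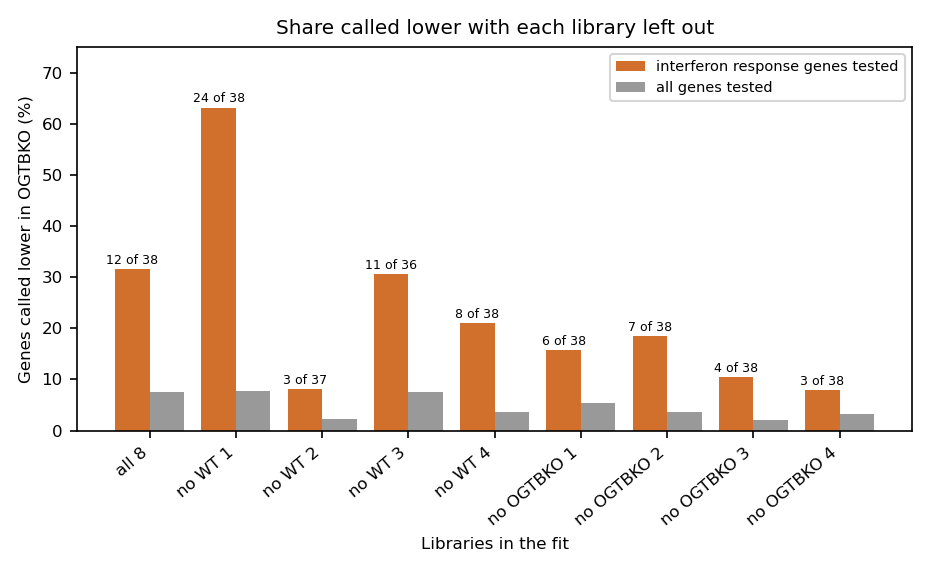
Bars give the share (%) of tested members and of all genes tested that were called lower with all 8 libraries and with each library left out, and the member counts stand above the bars. The counts run from 3 (without WT 2 or without OGTBKO 4) to 24 (without WT 1), beside 12 with all libraries.

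The scaling between libraries and the filter also set the count. With FPKM computed from library totals, 5 members were lower (1.89% of all genes), without the filter on low values 5 of 42 were lower (1.83%), and with array weights 22 were lower (13.4%). Under library totals the median log2 change of all genes was 0.094. GC content moved with the groups. The slope of log2 deviation on GC was -0.0143 to -0.00759 per percentage point in WT libraries and 0.00451 to 0.0211 in OGTBKO libraries, while the median GC content was 49.4% for the members and for all genes. With the trends on GC content and length removed, 12 members were lower (4.38% of all genes). Ifih1 (adjusted p = 0.0895) and Ddx58 (adjusted p = 0.0655) were then no longer called, and Isg15 (0.0469) and Bst2 (0.0444) were.

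Marker lists of the tissue's cell types were compared as summed FPKM. The B cell sum was 12.0 to 28.7 in WT and 101 to 256 in OGTBKO, mostly from the immunoglobulin gene Ighm, which rose (adjusted p = 0.00236). Of the 2 B cell markers tested, 1 was called. The neutrophil sum was 3.95 in WT 3, 21.4 to 35.9 in the other WT libraries and 2.80 to 6.15 in OGTBKO, and 1 of 3 tested markers, S100a8, fell (adjusted p = 0.0372). The macrophage sum was 196 to 383 in WT and 267 to 587 in OGTBKO. Much of it came from Lyz2, at 90.65 to 228.5 in WT and 148 to 420.5 in OGTBKO, which was not called (adjusted p = 0.154). Of the 11 macrophage markers 1, Cd163, was called lower (adjusted p = 0.0413), in 2 of 8 fits with 1 library left out. Plasmacytoid dendritic cells are strong producers of type I interferon. Their sum was 0.130 to 0.397 in WT and 0.0777 to 1.02 in OGTBKO, with Klk1 at 0 in all libraries and no marker high enough to test. The conventional dendritic cell sum was 4.76 to 11.2 in WT and 6.42 to 10.6 in OGTBKO. Of its 4 tested markers 1 rose, Itgax, which encodes the integrin CD11c, also found on macrophages. Itgax had 0.390, 0.436, 0.295 and 0.216 FPKM in WT 1 to 4 and 1.19, 2.25, 2.35 and 1.66 FPKM in OGTBKO 1 to 4 (log2 change 1.48, adjusted p = 0.00425), and it was called in all 8 fits with 1 library left out. The monocyte sum was 6.42 to 15.1 in WT and 4.99 to 12.1 in OGTBKO, and 1 of 4 tested markers, Plac8, fell (adjusted p = 0.0404). The sums of T cell and natural killer (NK) cell markers, from cells that make interferon gamma, were highest among WT libraries in WT 3. They were 2.50 and 2.68 there. They ranged from 1.43 to 2.63 (T cell) and from 0.834 to 2.23 (NK cell) in OGTBKO. Only 1 of 7 T cell markers and 1 of 6 NK cell markers were high enough to test, and neither was called. In WT 3 these sums rest on few reads, among them 18 for Trac, 10 for Gzma and 9 for Nkg7. The markers did not move together. Trac, Cd8a, Gzma, Nkg7 and Ncr1 were highest among WT libraries in WT 3. Cd4, Trbc2, Klrb1c, Gzmb and Klre1 were highest in another WT library, and so were Cd3d, Cd3e and Cd3g. The last 3 had 0, 1 and 0 reads in WT 3.

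The brown adipocyte sum was 3339 to 5150 in WT and 3051 to 3813 in OGTBKO, and 2 of the 9 markers were called lower. The other 7 were not called. The sum came mostly from a few abundant genes, and these did not move together. Fabp4 (log2 change 0.30, adjusted p = 0.343), Adipoq (0.26, adjusted p = 0.225), Plin1 (-0.06, adjusted p = 0.695) and Cidea (-0.07, adjusted p = 0.846) were not called. The list also held Prdm16, at 2.04 to 4.03 FPKM over the libraries. The endothelial sum was 108 to 133 in WT and 131 to 141 in OGTBKO, and 1 of 8 markers, Cdh5, rose (adjusted p = 0.0413). With 1 library left out, Plac8 and Cdh5 were each called in 1 of 8 fits and S100a8 in 2. The fibroblast sum was 203 to 261 in WT and 144 to 367 in OGTBKO, with no marker called. Skeletal muscle markers reached 404 in WT 1 and 1206 in OGTBKO 1 and were at most 31.8 elsewhere. With both libraries numbered 1 left out, 17 members were lower (6.94% of all genes tested). The part of the other cell types in the members' values was not tested.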

How the data were processed

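RNA-seq of mouse brown adipose tissue gave 4 WT and 4 OGTBKO libraries. The deposited table holds FPKM per gene, which the authors made with HISAT2 2.0.5 and featureCounts 1.5.0-p3 on mm10, per the submitters' processing notes. The strand setting is unstated. In the deposited table FPKM multiplied by gene length gave whole reads in each library (tolerance 0.001), and the authors' denominators ran from 0.790 (WT 3) to 1.13 (OGTBKO 3) times the library total.

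From these values log2(FPKM + 0.5) was fitted with limma 3.58.1 (R 4.3.3, two-sided, mean-variance trend, no block) for genes with a mean of at least 0.5 FPKM. Benjamini-Hochberg adjustment covered all genes tested, with a threshold of 0.05. The script was tested on simulated data. Intervals are 95%. Named were Ogt, all members, 12 fixed pathway genes (1 is not reported here) and the 8 other pathway genes with the smallest p. Irgm2, Rnf31, Gbp4, Gbp5 and the single marker genes were chosen after their values were seen. Members and lists were chosen with earlier results of these data known, and no pattern here is independent support for them. Alternatives were other pseudocounts, filters, denominators, array weights, GC and length trends, a replicate block and leaving out each library.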

Additional observations from a re-analysis of the deposited data

Results flagged for a closer look

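A library far from the other 3 of its group was looked for in each of the 42 members and both groups, 84 groups in all, by Dixon's criterion for 4 samples at its 95% level. It marked 5, and chance marks about 1 in 20 groups. WT 3 was the high library for Gbp2 (45.27 FPKM, others 7.683 to 10.55), Igtp (23.68 FPKM, others 4.994 to 6.115) and Samhd1 (6.142 FPKM, others 3.924 to 4.229). Ifnar1 was low in WT 1 (8.476 FPKM, others 10.25 to 10.42) and, within the other group, low in OGTBKO 3 (7.707 FPKM, others 8.776 to 8.927).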

How the results depend on the processing

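With all libraries 1068 genes were higher and 982 lower. Library totals as denominator gave 987 and 250, with 5 members and 2 other pathway genes lower. No filter on low values gave 492 lower genes, 5 lower members and 5 lower other pathway genes. Array weights gave 1757 higher and 1759 lower genes, 22 lower and 1 higher member (Ifnar2), and 27 lower and 2 higher other pathway genes. Removing the GC and length trends left 577 lower genes and 7 lower other pathway genes. A replicate block gave 561 higher and 327 lower genes and 2 lower other pathway genes, with 10 members lower. The replicate block with the GC and length trends removed gave 354 higher and 190 lower genes, 8 lower members and 1 lower other pathway gene. Leaving out 1 library gave 416 to 1125 higher and 276 to 1004 lower genes, 3 to 24 lower and 0 to 1 higher members, and 0 to 16 lower and 0 to 3 higher other pathway genes. Leaving out both libraries numbered 1, a setting chosen after seeing the data, gave 3 higher other pathway genes. The cause of these differences was not tested. No member's call reversed, and 30 members stayed below 0 in every setting that tested them. The labels do not say that the numbers pair the samples, so the main fit used no block. Deviations of same-numbered libraries from their group means correlated at 0.22, 0.169, 0.014 and -0.007 for numbers 1 to 4. WT 1 and WT 2 correlated best with their own number, and WT 3 and WT 4 with other numbers. These correlations cannot settle whether the samples are paired. Oas3, Oasl1, Mx1 and Mx2 had at most 64 reads in a library.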

Other observations

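GTPases outside the 42 members had the same library order. Of 11 in the list of other pathway genes, 9 were tested and none was called. All 11 were highest among the WT libraries in WT 3. The median of WT 3 over the median of the other WT libraries was 4.58 over the 10 for which that ratio could be formed. Irgm2 had 6.37, 12.7, 34.4 and 7.82 FPKM in WT 1 to 4 and a mean of 5.29 ± 1.84 (SD, n = 4) in OGTBKO. Gbp4 had 1.94, 3.10, 7.12 and 1.71 FPKM and Gbp5 had 0.848, 1.94, 4.97 and 1.04 FPKM in the same WT order. They were chosen after their values were seen. Ifng, which induces these genes, was listed at 0 in WT 3. WT 3 also had the largest mitochondrial share of reads in genes, 39.4%. The share was 32.2% in WT 1, 30.2% in WT 2, 27.2% in WT 4 and 25.2% to 30.2% in OGTBKO. Whether that share moved with the GTPase values was not tested.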
